A study of Homo sapiens with 6 samples.

Results

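Genes of the mitochondrial ribosome were followed in CD109-KO and parental A431 cells. Every gene whose platform symbol is MRPL or MRPS and a number, with or without a final A, B or C, was taken, which gave 74 genes of 17687 named genes on the array, each read by 1 probe set. By symbol 47 belong to the large subunit and 27 to the small subunit. Probe sets annotated with more than 1 symbol were treated as unnamed, so that a gene read only by such a probe set is absent. The rule uses the symbol and no signal, although it was set with earlier results of these data known.

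A431 is an established human line derived from an epidermoid carcinoma. The 3 CD109-KO samples are clones 26, 32 and 180, generated with CRISPR/Cas9 and guide RNAs against exon 1 and exon 2 of CD109, each line grown from a single sorted CD109-negative cell, and the 3 parental samples carry the numbers 5, 2 and 6. Cells grew in complete medium, with no further treatment given in the labels. CD109 is a glycosylphosphatidylinositol-anchored co-receptor that restrains TGF-β signalling. The comparison sets clones without CD109 beside parental cells. No sample is labelled as a parental clone or a mock-edited line, so that loss of CD109 and growth from a single sorted cell cannot be told apart. The paper calls its samples biological replicates, but no source says whether parental 5, 2 and 6 came from separate cultures, and the p-values cover only the spread between these samples.

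Mitochondria have a ribosome of their own, which descends from that of bacteria and makes the membrane proteins of the respiratory chain that are encoded in mitochondrial DNA. All of its proteins are encoded in the nucleus, made in the cytosol and imported. Some have a counterpart in the bacterial ribosome, while others were added during the evolution of mitochondria. The small subunit decodes the mRNA and the large subunit joins the amino acids.

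Values are log2 signals of 6 Clariom S arrays as deposited. The CD109 signal averaged 3.57 ± 0.11 (SD, n = 3) over the clones and 7.82 ± 0.29 (SD, n = 3) over the parental samples, and the place of its probes relative to the edited exons was not looked up. The median of all gene probe sets was 5.40 to 5.41 in CD109-KO arrays and 5.20 to 5.24 in parental arrays, but the spread was narrower in CD109-KO arrays, with an interquartile range of 2.44 to 2.49 against 3.25 to 3.51. For each array, the signal that 95% of its 349 olfactory receptor probe sets stayed under served as background, which lay at 5.51 to 5.71 in CD109-KO arrays and at 4.07 to 4.20 in parental arrays. All 11 measured keratinocyte and epidermoid carcinoma markers were lower in CD109-KO arrays, EGFR among them (-5.72), with a summed signal of 66.2 to 67.9 against 107 to 111. Fibroblast markers were higher for 12 of 14 genes and lower for 1 (summed signal 88.8 to 90.8 against 56.3 to 62.8). Endothelial markers were higher for 5 of 8 (42.7 to 43.1 against 33.0 to 34.3). Blood cell markers were higher for 4 of 6 and lower for 1 (33.5 to 34.1 against 30.1 to 33.6). By the same calls, defined below, 36.2% of all named genes were higher and 26.8% lower. These 3 lists had median parental signals of 4.08, 4.68 and 4.57. Among the 10511 genes with a mean parental signal under 6, 5667 were higher. The bacterial spike-in controls had a median of 8.90 to 9.27 in CD109-KO arrays, of 9.15 and 8.29 in parental samples 5 and 2, and of 6.08 in parental sample 6. Their part in the results that follow was not tested.

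Of the 74 mitoribosomal genes, 51 (68.9%) were lower and 3 (4.05%) were higher in CD109-KO cells, and 20 did not pass. Calls required an adjusted p under 0.01 (limma, Benjamini-Hochberg over all gene probe sets) and at least a doubling or halving, a fold change of 2. Across all named genes the same thresholds called 26.8% lower and 36.2% higher. The median log2 difference of the 74 genes was -1.91, where that of all genes was 0.51. In single arrays the median signal of the 74 genes was 5.44, 5.29 and 5.34 in clones 26, 32 and 180. It was 7.15, 6.99 and 7.53 in parental samples 5, 2 and 6, so that the groups were apart. For 58 genes every CD109-KO value lay under every parental value, an order found for 31.8% of all genes, and for 9 genes every CD109-KO value lay above, an order found for 48.9% of all genes. The other 7 overlapped. In RNA from whole cultures, fewer cells with a transcript and less transcript per cell cannot be told apart.

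**Figure D1:**
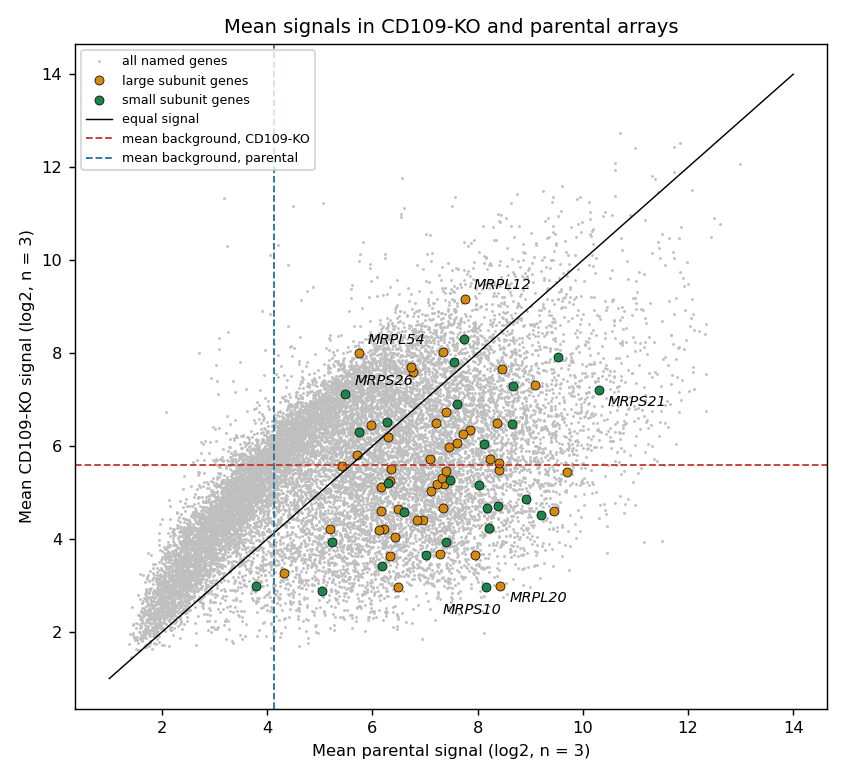
Mean log2 signal of each named gene in the 3 parental arrays (x axis) and the 3 CD109-KO arrays (y axis), with large subunit genes in orange and small subunit genes in green. The line marks equal signal and the dashed lines mark the mean background of each group; of the 74 genes, 61 lie under the line of equal signal.

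The counts depended on how the arrays were put on 1 scale. First, each array was centred on the median of a list of housekeeping genes that any human cell requires, called essential genes from here on. Of these, 24 of 38 were themselves lower as deposited. With this centring 19 mitoribosomal genes were lower and 17 were higher. Their median moved to -0.15 while that of all genes moved to 2.26. Of all 17687 named genes, 1774 were then lower and 12281 higher, against 4746 and 6410 as deposited. Centring on the 23 antigenomic background controls gave 62 lower and 1 higher, and centring on the 4 hybridization controls gave 58 lower and 1 higher. Of all named genes, the former gave 7504 lower and 553 higher, and the latter 6107 lower and 934 higher. In every array the median of the 23 antigenomic controls was the signal of the control with 14 G or C bases. That control was higher in CD109-KO arrays by 1.21, where single antigenomic controls differed by 0.07 to 1.77. All values after this centring rest on that control. A repeated quantile normalization gave 51 and 7, and a common median and median absolute deviation gave 52 and 7. Over all named genes the former gave 4616 and 5433, and the latter 4844 and 5036. Relative to the median of all genes, the median of the 74 genes was -2.41 as deposited and, since centring shifts all genes alike, under every centring. It was -2.03 after quantile normalization and -1.86 with a common median absolute deviation. When dim probe sets (over background in fewer than 3 arrays) were dropped, it was -1.70 for the 72 members left, since the median of the genes left was -0.24. As deposited, 66 of the 74 lay under the median difference of all genes. The 19 genes that were lower as deposited and under all 5 other scalings were MRPL3, MRPL13, MRPL14, MRPL20, MRPL30, MRPL37, MRPL42, MRPL51, MRPS5, MRPS10, MRPS16, MRPS17, MRPS18B, MRPS21, MRPS22, MRPS27, MRPS30, MRPS33 and MRPS35, and the 1 gene that was higher under all of them was MRPL54.

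Both subunits held many lower genes. Of the 47 large subunit genes, 33 (70.2%) were lower and 2 (4.26%) higher, with a median log2 difference of -1.78. Of the 27 small subunit genes, 18 (66.7%) were lower and 1 (3.7%) higher, with a median of -2.16. MRPS30 and MRPS18A lie in the large subunit despite their symbols, and with both placed there the counts were 35 lower of 49 and 16 lower of 25. No test of the difference between subunits was made. Genes with a bacterial counterpart were lower for 34 of 46 and higher for 1, and genes found only in mitochondrial ribosomes were lower for 17 of 28 and higher for 2, with medians of -1.94 and -1.81.

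**Figure D2:**
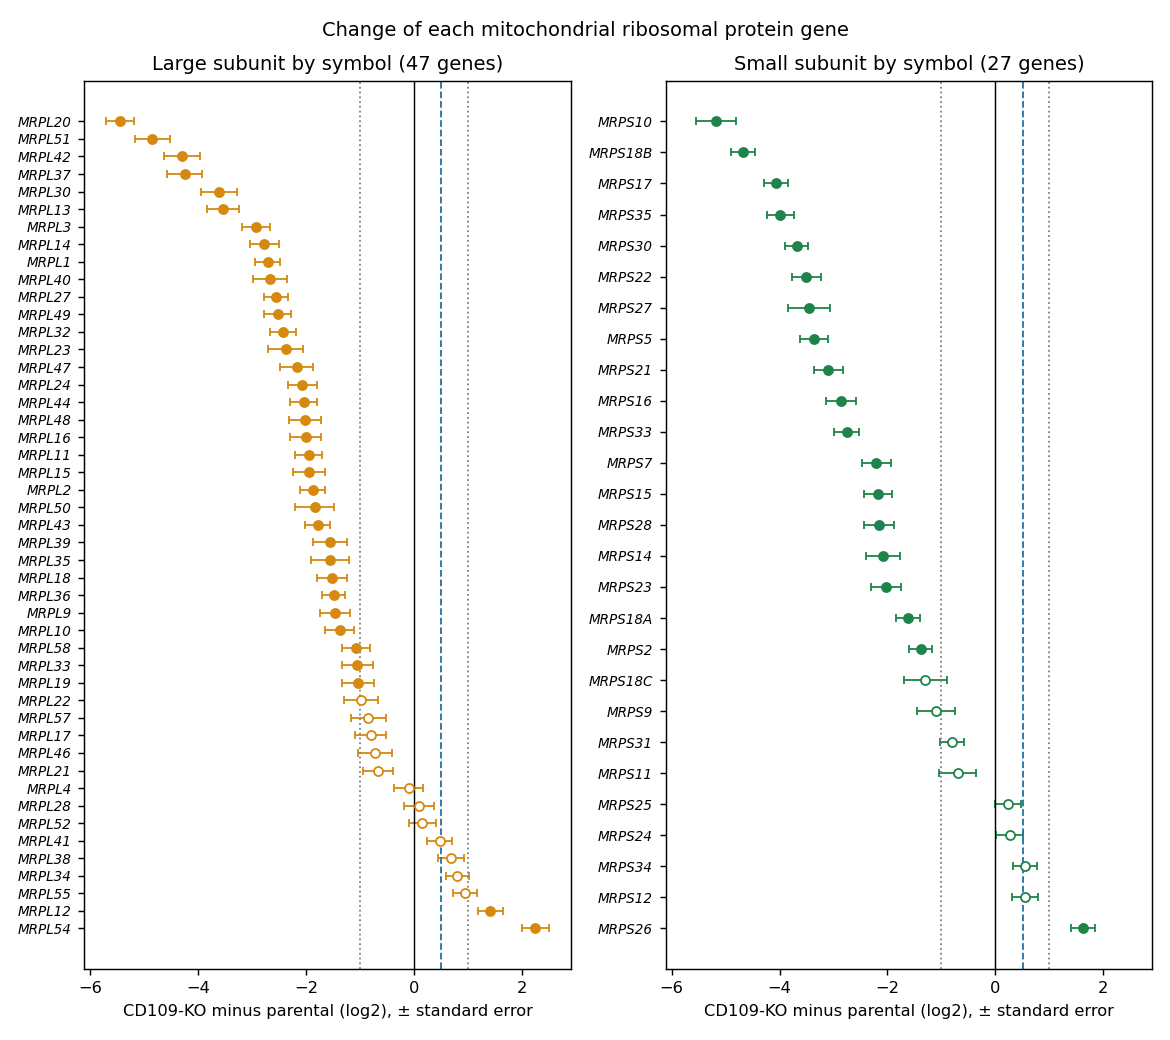
Log2 difference of CD109-KO minus parental mean for each of the 47 large and 27 small subunit genes, with the standard error from limma as bars. Filled points were called, dotted lines mark a fold change of 2, and the dashed blue line marks the median difference of all named genes (0.51).

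Promoter letters are shown for some lower and higher genes, because regulators known for nuclear genes of mitochondrial proteins bind close to the start. Promoters came from RefSeq (GRCh38.p14) as 250 bases before to 50 after each annotated start, and 66 of the 74 genes had at least 1. The letters searched on both strands were CCGGAAG, bound by ETS factors such as GABP, ATGGCGG, bound by YY1, and GCGCA and GCGC joined by any 1 base, bound by NRF1. ETS and NRF1 factors are known activators of such genes. MRPL12, which was also higher, had a promoter without ETS letters and is not shown. The stretches from 60 bases before the start up to it are given first, with the ETS letters or their reverse complement in capitals. They come from genes picked for holding these letters there, some lower (MRPL20, MRPS10, MRPS18A) and some higher (MRPL54, MRPS26).
MRPL20, chr1:1407294-1407353, minus strand: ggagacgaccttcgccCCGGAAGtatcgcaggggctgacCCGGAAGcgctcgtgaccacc
MRPS10, chr6:42217862-42217921, minus strand: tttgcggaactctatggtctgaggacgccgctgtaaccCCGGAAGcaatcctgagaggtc
MRPS18A, chr6:43687792-43687851, minus strand: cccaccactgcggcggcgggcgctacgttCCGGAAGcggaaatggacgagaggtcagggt
MRPL54, chr19:3762622-3762681, plus strand: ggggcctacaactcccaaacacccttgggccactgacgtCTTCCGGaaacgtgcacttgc
MRPS26, chr20:3045992-3046051, plus strand: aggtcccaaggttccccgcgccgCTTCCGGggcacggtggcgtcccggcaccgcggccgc

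The first 30 bases after the start are shown for genes with the YY1 letters there, again in capitals. Whether the ATG in them is the start codon was not looked up.
MRPL42, chr12:93467514-93467543, plus strand: attgaaacaagATGGCGGgttcgtggtgag
MRPS35, chr12:27710832-27710861, plus strand: gtcctcgcagccATGGCGGccgccgcgctc
MRPS10, chr6:42217832-42217861, minus strand: gggaccggcaagATGGCGGcgcggacagcg
MRPS30, chr5:44808947-44808976, plus strand: ggaatcgcgggcaaagATGGCGGcggccag
MRPL58, chr17:75012670-75012699, plus strand: agtcgcaagacctgagcATGGCGGccacca

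ETS letters were found for 29 of the 66 genes (43.9%), where 16.6% of all 14250 genes with a promoter and 10.3% of all 35116 promoters hold them. YY1 letters were found for 24 genes (36.4%), against 9.29% of genes and 5.55% of promoters, and NRF1 letters for 8 genes (12.1%), against 9.98% and 5.78%. Of the 66 genes 50 held at least 1 of the 3, and 7 held both the ETS and the YY1 letters, as MRPS10 does in its adjoining stretches. For 24 of the 29 genes with ETS letters a match began within -60 to +10 of the start. For 19 of the 24 with YY1 letters a match on the strand of the gene began after the start. Those matches began between +10 and +39, which are their own lowest and highest places in a stretch that ends at +50. Places of the letters over all promoters were not counted. A match is a description of letters, not of binding.

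**Figure D3:**
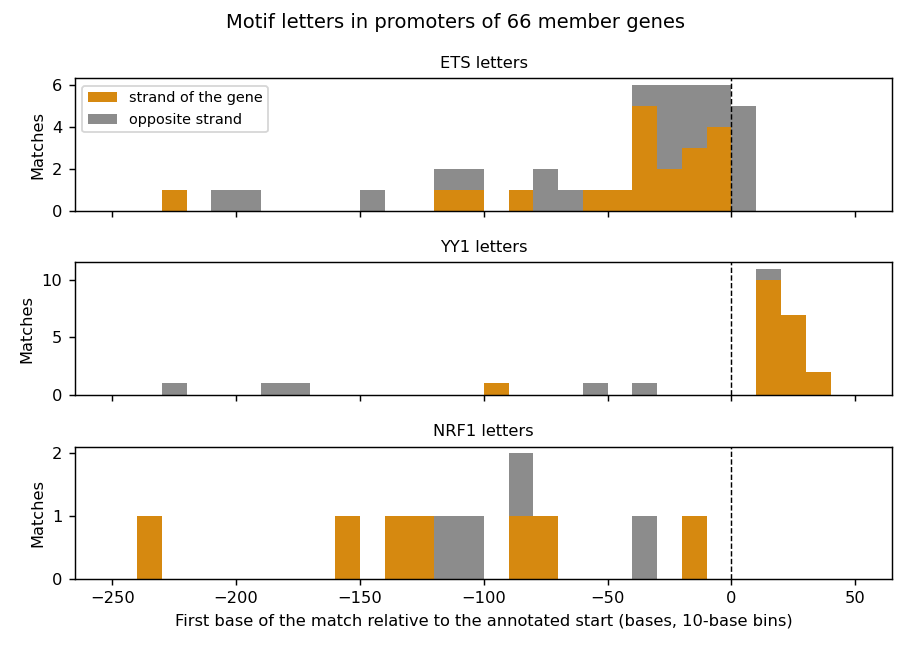
Positions at which the ETS, YY1 and NRF1 letters begin in the promoters of 66 mitoribosomal genes, relative to the annotated start, counted in bins of 10 bases and coloured by strand. ETS letters crowd just before the start and YY1 letters between +10 and +39 on the strand of the gene, while NRF1 letters are few and scattered.

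The letters did not sort lower genes from the rest by count. ETS letters were present in 20 of the 44 lower genes with a promoter and in 9 of the 22 others, 2 of which were higher. YY1 letters were present in 17 of the 44 and 7 of the 22, and NRF1 letters in 4 of the 44 and 4 of the 22. Over all genes, 42.5% of those with ETS letters were lower and 25.0% of those without, 41.8% and 26.5% for YY1 letters, and 41.6% and 26.4% for NRF1 letters. These shares are descriptions over genes, which are not independent replicates.

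MRPL20 (chromosome 1 from 1401909 to 1407293 of GRCh38.p14), a protein of the large subunit whose bacterial counterpart binds the rRNA early in assembly, had log2 signals of 3.24, 2.63 and 3.11 in clones 26, 32 and 180, against 8.58, 8.05 and 8.67 in parental samples 5, 2 and 6. All CD109-KO values lay far under the parental values. The log2 difference was -5.44 (standard error 0.26, adjusted p = 6.55e-08 from limma). No CD109-KO array showed it above background, and the fall was at least 7.20-fold when counted from that background. Bounds of this kind use, for each CD109-KO array, its background or the signal of the gene, whichever is larger.

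MRPL51, a protein of the large subunit found only in mitochondria, had signals of 5.26, 4.31 and 4.25 in the clones and of 9.51, 8.99 and 9.88 in the parental samples. The groups did not overlap, and the log2 difference was -4.85 (standard error 0.32, adjusted p = 3.51e-07 from limma), with a bound of at least 14.7-fold. MRPL42, also found only in mitochondria, had signals of 3.96, 2.99 and 4.02 in the clones and of 7.59, 7.73 and 8.53 in the parental samples, a log2 difference of -4.29 that was at least 5.14-fold. MRPL37 had signals of 6.06, 4.66 and 5.64 in the clones and of 9.67, 9.54 and 9.89 in the parental samples (-4.25). Clone 32 was the lowest of the clones for both MRPL42 and MRPL37, and MRPL37 exceeded the background in 1 CD109-KO array.

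MRPL30, which has a bacterial counterpart, had signals of 3.96, 3.73 and 3.34 in the clones and of 6.64, 7.25 and 7.98 in the parental samples, and differed by -3.61 (at least 3.26-fold). MRPL13, the counterpart of bacterial L13, had signals of 3.07, 3.06 and 2.75 in the clones and of 6.92, 5.81 and 6.75 in the parental samples, and differed by -3.53 (at least 1.87-fold). In neither did the groups overlap, although the parental values of MRPL30 spread by an SD of 0.67. The other 27 large subunit genes that were lower had differences from -2.92 for MRPL3, whose bacterial counterpart reaches towards the catalytic site, to -1.03 for MRPL19. They include MRPL32 (-2.43, at least 2.39-fold), which is matured by a protease of the inner membrane, MRPL44 (-2.04), which has the fold of RNase III, and MRPL39 (-1.55, at least 1.49-fold), which is related to threonyl-tRNA synthetase. Counterparts of bacterial proteins among them were MRPL14 (-2.77), MRPL1 (-2.71, at least 1.68-fold), MRPL27 (-2.55, at least 2.59-fold), MRPL23 (-2.38, at least 1.79-fold), MRPL24 (-2.06, at least 2.87-fold), MRPL16 (-2.01, at least 3.32-fold), MRPL11 (-1.95), MRPL15 (-1.94, at least 1.46-fold), MRPL2 (-1.88), MRPL18 (-1.52), MRPL36 (-1.48), MRPL9 (-1.46) and MRPL10 (-1.38). MRPL47 (-2.17), which also has a bacterial counterpart, was lower too. So were MRPL40 (-2.67, at least 3.38-fold), MRPL49 (-2.52), MRPL48 (-2.02, at least 1.56-fold), MRPL50 (-1.84, at least 1.88-fold) and MRPL43 (-1.78). Less firm were the falls of MRPL35 (-1.55), MRPL33 (-1.05, under the background in every clone and with no bound) and MRPL19 (-1.03, at least 1.49-fold), whose calls ended when single arrays were left out. For MRPL35 that array was parental 5, and its parental signals of 7.78, 6.73 and 8.30 had an SD of 0.80.

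MRPS10, the counterpart of bacterial S10 in the head of the small subunit, had signals of 3.52, 2.79 and 2.62 in the clones and of 8.11, 7.40 and 8.95 in the parental samples. All CD109-KO values were lower although the parental SD was 0.77. The log2 difference was -5.18 (standard error 0.38, adjusted p = 6.21e-07 from limma), with a bound of at least 5.93-fold. MRPS17, the counterpart of bacterial S17, had signals of 4.65, 5.06 and 4.86 in the clones and of 8.74, 9.13 and 8.92 in the parental samples, a difference of -4.07 that was at least 10.1-fold. MRPS35, found only in mitochondria, had signals of 4.39, 3.88 and 4.45 in the clones and of 8.18, 7.99 and 8.50 in the parental samples (-3.98, at least 6.21-fold). Within each group the values of MRPS17 and MRPS35 lay close together.

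MRPS22, found only in mitochondria, had signals of 4.95, 4.54 and 4.50 in the clones and of 8.14, 7.77 and 8.60 in the parental samples, a difference of -3.50 that was at least 5.99-fold. MRPS30, named for the small subunit but placed in the large, had signals of 4.59, 4.68 and 4.85 in the clones and of 8.33, 8.33 and 8.50 in the parental samples. Its groups were narrow and apart, with a difference of -3.68 (standard error 0.21, adjusted p = 1.44e-07 from limma), with a bound of at least 6.96-fold. Among the other small subunit genes that were lower, MRPS27, a protein with pentatricopeptide repeats, differed by -3.45 (at least 3.49-fold), MRPS5 by -3.36 (at least 2.69-fold), MRPS21 by -3.09 and MRPS16 by -2.86 (at least 5.42-fold). MRPS33 differed by -2.76 (at least 1.51-fold), MRPS7 by -2.20, MRPS15 by -2.17, MRPS14 by -2.08 and MRPS23 by -2.03 (at least 2.02-fold). MRPS28, at -2.16, was not above background in any CD109-KO array, and its parental signal was too low to give a bound. MRPS2, at -1.38, was the least lowered of the small subunit genes called. All of these had every CD109-KO value under every parental value.

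The 3 counterparts of bacterial S18 gave unlike values. MRPS18B had signals of 4.40, 4.61 and 4.57 in the clones and of 8.98, 9.31 and 9.33 in the parental samples, a log2 difference of -4.68 (standard error 0.22, adjusted p = 6.55e-08 from limma), with a bound of at least 12.3-fold. MRPS18A had signals of 7.77, 8.02 and 7.94 in the clones and of 9.25, 9.74 and 9.59 in the parental samples, so that it stayed above the background in every array. Its difference of -1.62 (adjusted p = 6.59e-05 from limma) shrank to -0.65 after quantile normalization and to -0.81 with a common median absolute deviation, short of a fold change of 2, and turned to 0.14 after essential-gene centring. MRPS18C had signals of 4.27, 3.78 and 3.76 in the clones and of 4.51, 4.91 and 6.29 in the parental samples. It exceeded the background in no CD109-KO array. Its parental mean of 5.23 lay under the CD109-KO background of 5.51 to 5.71, so that no bound can be given. The parental SD of 0.94 was the widest of the 74 genes, and the difference of MRPS18C, -1.30, missed the threshold (adjusted p = 0.0106 from limma). It passed without parental replicate 5 (-1.66, adjusted p = 0.00392 from limma), after quantile normalization (-1.64), with a common median absolute deviation (-1.70) and after centring on antigenomic (-2.51) or hybridization controls (-2.20), and turned to 0.45 after essential-gene centring.

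**Figure D4:**
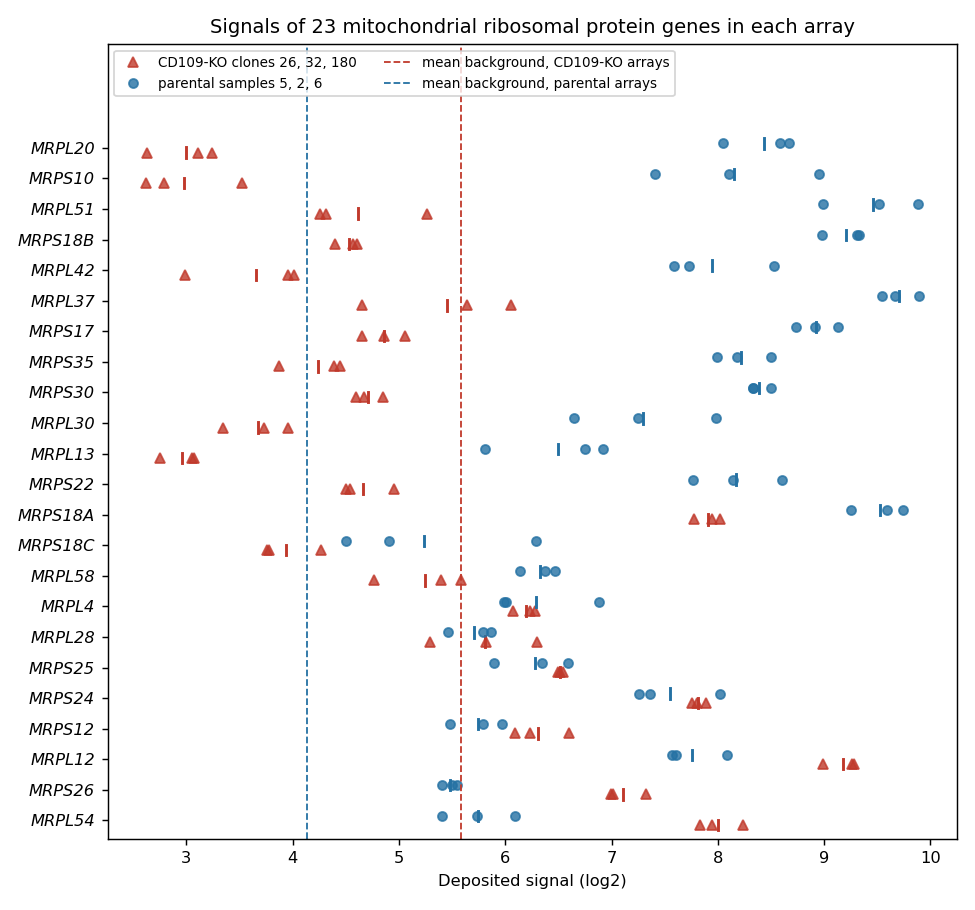
Log2 signals of 23 mitoribosomal genes in each of the 3 CD109-KO clones (red triangles) and 3 parental samples (blue circles), with bars at the group means and dashed lines at the mean background of each group. For the genes at the top the groups are far apart and most CD109-KO values lie under the background of those arrays; MRPL12, MRPS26 and MRPL54 at the foot show the opposite order.

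MRPL54 (chromosome 19 from 3762682 to 3767565), a protein of the large subunit found only in mitochondria, had signals of 8.24, 7.94 and 7.83 in the clones and of 5.74, 6.10 and 5.41 in the parental samples. Every CD109-KO value was higher. The log2 difference was 2.26 (standard error 0.25, adjusted p = 1.2e-05 from limma). MRPS26, found only in mitochondria, had signals of 6.99, 7.02 and 7.32 in the clones and of 5.55, 5.40 and 5.50 in the parental samples, a difference of 1.63 (adjusted p = 4.44e-05 from limma). MRPL12, which forms the stalk that calls in translation factors and also binds the mitochondrial RNA polymerase POLRMT, had signals of 8.99, 9.26 and 9.28 in the clones and of 8.09, 7.57 and 7.61 in the parental samples, a difference of 1.42 (adjusted p = 0.000208 from limma). The rises of MRPS26 and MRPL12 did not pass after centring on antigenomic (0.42 and 0.21) or hybridization controls (0.73 and 0.52), which take the same amount off every gene. All 3 genes were above the background in every array.

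MRPL58, a peptidyl-tRNA hydrolase that frees stalled ribosomes and is also a fixed part of the large subunit, had signals of 5.58, 4.77 and 5.39 in the clones and of 6.14, 6.38 and 6.47 in the parental samples. It was lower by -1.08 (adjusted p = 0.00266 from limma), but not with the methods' t-test (adjusted p = 0.0256) and not without CD109-KO replicate 32 (-0.84) or parental replicate 6 (-1.01, adjusted p = 0.0124 from limma), and it turned to 0.68 after essential-gene centring. MRPS12, the counterpart of the bacterial protein at the decoding centre in which streptomycin resistance arises, had signals of 6.23, 6.09 and 6.60 in the clones and of 5.48, 5.97 and 5.79 in the parental samples. Every CD109-KO value was higher, yet the difference of 0.56 did not pass (adjusted p = 0.0506 from limma), and it turned to -0.65 after centring on antigenomic controls and to -0.34 after centring on hybridization controls.

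Within each subunit the 2 smallest differences were those of MRPL4 (-0.10) and MRPL28 (0.10) and of MRPS25 (0.24) and MRPS24 (0.27), and their groups overlapped. MRPL4 had signals of 6.24, 6.07 and 6.28 in the clones and of 6.01, 5.98 and 6.88 in the parental samples. MRPL28 had signals of 5.29, 6.30 and 5.82 in the clones and of 5.46, 5.87 and 5.79 in the parental samples. Neither difference exceeded the spread within the groups. MRPS25 had signals of 6.52, 6.49 and 6.54 in the clones and of 6.35, 5.90 and 6.59 in the parental samples, and MRPS24 had signals of 7.76, 7.80 and 7.89 in the clones and of 7.36, 8.02 and 7.25 in the parental samples. In both genes the clones lay within the range of the parental samples. With essential-gene centring all 4 were higher (1.66 for MRPL4, 1.85 for MRPL28, 1.99 for MRPS25 and 2.02 for MRPS24), and after centring on antigenomic controls they were at -1.30, -1.11, -0.97 and -0.94, of which that of MRPL4 passed. MRPL55 (0.95), MRPL34 (0.81), MRPL38 (0.69), MRPS34 (0.56) and MRPL41 (0.48) had every CD109-KO value above every parental value, none with a fold change of 2. On the other side, MRPS9 (-1.10), MRPL22 (-0.98), MRPL57 (-0.84), MRPS31 (-0.80), MRPL17 (-0.80) and MRPL21 (-0.67) had every CD109-KO value under every parental value but did not pass. MRPS31 lay under the background in every array of both groups, and MRPL22 in every CD109-KO array. MRPL46 (-0.72), MRPS11 (-0.70) and MRPL52 (0.16) overlapped, and in MRPL46 and MRPS11 it was parental sample 2 that reached down to the clones, at 6.40 and 6.80.

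How far a gene differed went with its parental level. Of the mitoribosomal genes with a mean parental signal of 9 and over, 6 of 6 were lower with a median difference of -3.67, where 83.9% of all genes that bright were lower with a median of -3.03. At 8 to 9, 14 of 15 genes were lower (median -2.86) against 72.9% of all genes (-2.08). At 7 to 8, 16 of 23 (69.6%) were lower against 56.8%, with medians of -1.55 and -1.34. At 6 to 7, 13 of 19 (68.4%) were lower against 36.7%, with medians of -1.84 and -0.39. Under 6, 2 of 11 (18.2%) were lower against 6.8%, with medians of 0.10 and 1.10. The parental mean enters both the grouping and the difference, so that part of this order is fixed by the arithmetic.

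Many of the signals in CD109-KO arrays lay under the background. In parental arrays 72 or 73 of the 74 genes exceeded the background, and in CD109-KO arrays 31 to 35 did. Of all 17687 named genes, 12106 to 12297 did in parental arrays and 7841 to 8691 in CD109-KO arrays. In all 3 CD109-KO arrays 33 of the 74 genes lay under it, as did 8221 of all named genes. Among the 33 were 30 of the 51 mitoribosomal genes that were lower. For 28 of these 30 the parental signal was high enough for a bound, from at least 1.46-fold for MRPL15 to at least 14.7-fold for MRPL51. The brightest in parental cells, MRPS21, a small subunit protein with a bacterial counterpart, had signals of 7.70, 6.85 and 7.09 in the clones and of 10.60, 10.07 and 10.25 in the parental samples, all above the background, and differed by -3.09 (adjusted p = 2.44e-06 from limma). RefSeq lists a pseudogene named after 38 of the 74 genes, and signals shared with such copies cannot be told apart here.

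The 23 antigenomic controls, probe sets that match no human sequence, differed between the groups by their base composition. The 7 with fewer than 10 G or C bases differed by 0.07 to 0.16, the 4 with 10 to 13 by 0.24 to 0.87, and the 12 with 14 or more were higher in CD109-KO arrays by 1.21 to 1.77, with every CD109-KO value above every parental value in both of the latter sets. The labels give no hybridization or scan batch, so that array processing and group cannot be told apart in any of these differences. The composition of the mitoribosomal probes was not analysed here. Over the 66 genes with a promoter, the GC share of the promoter went with the log2 difference at a Spearman rho of 0.35 (Pearson r 0.32), and over all 14250 genes at -0.09 (-0.10). Gene length went with it at a rho of -0.36 over the 74 genes and -0.19 over all genes. The median gene length was 10986 bases for the lower, 6241 for the uncalled and 4151 for the higher genes. These correlations are across genes that share the same 6 arrays. Their part in the differences was not tested.

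**Figure D5:**
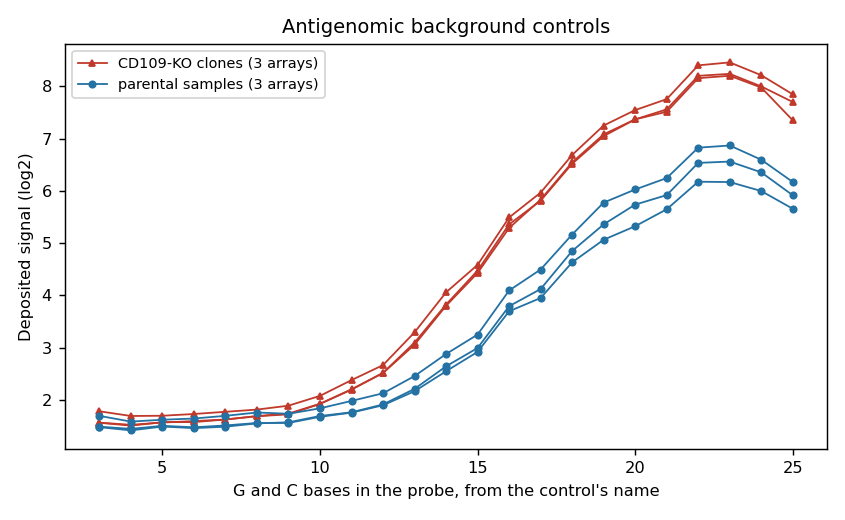
Log2 signal of the 23 antigenomic controls in each array against the number of G and C bases in the probe, as given by the name of the control, with CD109-KO arrays in red and parental arrays in blue. The groups overlap under 10 such bases, are apart from 10 on, and at 14 or more the CD109-KO arrays were higher by 1.21 to 1.77.

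By chromosome, all 6 members on chromosome 6 were lower (median -2.32), where 34.1% of all genes there were lower, and so were all 3 on chromosome 12, MRPL51, MRPL42 and MRPS35 (median -4.29), where 28.2% of all genes were. The 4 on chromosome 19, MRPL54, MRPL34, MRPS12 and MRPL4, had a median of 0.68, where the median of all genes there was 0.94 and 12.7% were lower. On chromosome 17, which carries MRPL12 and MRPL58, 5 of 7 were lower and 1 was higher, against 20.1% and 46.4% of all genes there. The 2 members on chromosome 16 did not pass (median 0.33), where 22% of all genes there were lower. Only chromosomes 6, 12, 16, 17 and 19 were picked for these counts, and members on other chromosomes were not counted in this way. A pattern over chromosomes cannot be read from them. These groups are small, and no test was made of them.

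Genes that act with the mitoribosome were lower in part as well on the deposited scale, beside 26.8% lower and 36.2% higher among all named genes and their median of 0.51. Of 4 mitoribosomal proteins with other names, 2 were lower and 1 was higher. DAP3 of the small subunit differed by -2.06 (at least 2.80-fold). PTCD3, also of the small subunit, differed by -2.10, but it exceeded the background in no CD109-KO array and 2 parental arrays, so that no bound is given, while GADD45GIP1 of the large subunit, which lies at the exit of the nascent chain, rose by 1.47. That rise did not pass after centring on antigenomic (0.26) or hybridization controls (0.57), and the falls of DAP3 and PTCD3 did not pass after essential-gene centring (-0.31 and -0.35). Of 29 mitoribosome assembly factors, 15 were lower and 14 did not pass (median -1.12). NOA1, a GTPase of small subunit assembly, differed by -5.00 (at least 5.63-fold, adjusted p = 1.36e-07 from limma), METTL15, a methyltransferase of the small subunit rRNA, by -3.39 (at least 3.67-fold) and YBEY, an rRNA endonuclease, by -3.23 (at least 3.57-fold).

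Of 16 mitochondrial translation factors, 11 were lower and 5 did not pass (median -2.42). MTIF2, the initiation factor that brings the first tRNA, averaged 2.38 ± 0.10 (SD, n = 3) over the clones and 7.64 ± 0.40 (SD, n = 3) over the parental samples, a difference of -5.26 (adjusted p = 6.55e-08 from limma) that was at least 4.16-fold against the background. RMND1 differed by -4.16 (at least 1.97-fold), the recycling factor gene MRRF by -3.68 (at least 10.01-fold), and LRPPRC, which stabilises mitochondrial mRNA, by -1.66. LRPPRC did not pass with the methods' t-test and turned to 0.091 after essential-gene centring. Of 20 mitochondrial aminoacyl-tRNA synthetases and partners, 11 were lower and 1 was higher (median -1.24). IARS2, the isoleucyl-tRNA synthetase, differed by -3.46 (at least 4.78-fold), and GATC and GATB, subunits of the amidotransferase that makes glutaminyl-tRNA, by -3.55 and -2.19 (at least 10.7-fold and 2.20-fold). The call of GATB ended after essential-gene centring (-0.43).

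Of 16 genes of mitochondrial DNA maintenance and transcription, 10 were lower and 1 was higher (median -2.36). SSBP1, which coats single-stranded mitochondrial DNA, differed by -5.15 (at least 5.51-fold, adjusted p = 3.8e-07 from limma), the RNA helicase gene SUPV3L1 by -3.26 (at least 3.48-fold), PRORP, the nuclease subunit of mitochondrial RNase P, by -3.24 (at least 4.05-fold), and TFAM, which packs mitochondrial DNA, by -2.76. POLRMT, the partner of MRPL12, had a difference of -0.33 (adjusted p = 0.226 from limma) with overlapping groups. That difference turned to 1.43 after essential-gene centring and fell to -1.54 after centring on antigenomic controls. POLRMT exceeded the background in all 3 parental arrays but in no CD109-KO array, so that its level in the clones was not resolved. Of 9 regulators of mitochondrial biogenesis, 4 were lower and 3 were higher (33.3%, near the 36.2% of all genes), with a median of -0.71. PPARGC1A, a coactivator of mitochondrial genes, differed by -4.66 (at least 14.2-fold, adjusted p = 4.58e-07 from limma), MYC by -1.97 and NRF1, whose letters were searched in the promoters, by -1.85 (at least 1.49-fold). The calls of MYC and NRF1 ended after essential-gene centring (-0.22 and -0.092), and that of NRF1 also with the methods' t-test (adjusted p = 0.0347).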

How the data were processed

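Each of the 3 CD109-KO clones and 3 parental A431 samples gave RNA for 1 Clariom S array. Per the labels and methods, the authors deposited log2 signals after background correction and normalization in Gene Expression Console, followed by Transcriptome Analysis Console for testing, with hg38 as build. The algorithm of normalization was not given in the sources used here. These values entered the fit unchanged, without 2903 control probe sets. Of 21448 gene probe sets 17709 had 1 symbol from the platform annotation, and 3739, with no symbol or more than 1, are unnamed here. For 20 genes with several probe sets the brightest stood for the gene.

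Groups were compared with limma 3.58.1 (lmFit and eBayes) in R 4.3.3, and p-values were Benjamini-Hochberg adjusted across gene probe sets. The thresholds (0.01 for adjusted p, 2 for fold change) are those of the study. The paper's own list at these thresholds held far fewer genes, with more down-regulated than up-regulated. The limma fit called 4746 named genes lower and 6410 higher, and why the counts differ was not examined. The methods' t-test comes from the general statistics section. Scripts were tested on simulated data. The number of arrays limits the precision. Columns of other samples numbered 0.

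Members, lists and tests were chosen with earlier results of these data known. Named in full were, per subunit, the 6 largest falls, up to 4 largest rises and the 2 smallest differences, the MRPS18 paralogues, members with another place or role (MRPS30, MRPL12, MRPL58, MRPS12) and up to 3 genes of each related list, with LRPPRC, TFAM, POLRMT, PPARGC1A, NRF1 and MYC. Other members were named after their values were seen. Alternatives were the prior, the t-test, 5 scalings, a filter on dim probe sets, other thresholds, the mean over probe sets and leaving out each array.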

Additional observations from a re-analysis of the deposited data

Results flagged for a closer look

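The antigenomic background controls are outside the comparison of genes. The 12 of them with 14 or more G or C bases were higher in CD109-KO arrays than in parental arrays by a mean of 1.64 on the log2 scale, with all 3 CD109-KO values above all 3 parental values for each of the 12. They match no human sequence, and the parental arrays served as the control level. The labels give no batch of hybridization or scan, so that array processing and group cannot be told apart. The cause was not tested.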

How the results depend on the processing

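No paired analysis was possible because the groups share no replicate numbers. Without 1 array, 4377 to 4910 of all named genes were lower and 5906 to 6606 higher. Leaving out 1 array gave 48 to 56 lower members and 3 to 4 higher (large subunit 30 to 36 and 2 to 3, small subunit 18 to 20 and 1 to 1). Member medians ranged from -1.98 to -1.75 (large -1.83 to -1.62, small -2.28 to -1.98). The calls that ended were those of MRPL19 (without clone 26, clone 180, parental 5 or parental 6), MRPL33 (without clone 26, clone 32, parental 5 or parental 6), MRPL58 (without clone 32 or parental 6) and MRPL35 (without parental 5), and 6 further members passed without parental 2, which was the lowest parental sample for 39 members. MRPL4 ranged from -0.25 to 0.20, positive without parental 6, and MRPL28 from -0.15 (without clone 32) to 0.35, with -0.026 without parental 5. Among related lists, higher genes numbered 0 to 1 for assembly factors, 1 to 2 for tRNA synthetases and 0 to 1 for DNA maintenance.

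With the methods' t-test and Benjamini-Hochberg adjustment, 37 members were lower and 3 higher, of the large subunit 20 lower. Of all named genes, 3140 were lower and 4391 higher with this test. Lower genes then numbered 8 for assembly factors, 5 for tRNA synthetases and 2 for biogenesis regulators, and 0 DNA maintenance genes were higher. After quantile normalization 7 members were higher (5 large, 2 small, large median -1.51), with 1 assembly factor and 0 DNA maintenance genes, and MRPL4 turned to 0.038. With a common median absolute deviation the higher counts were the same: 7, 5, 2, 1 and 0. With essential-gene centring, 19 members were lower and 17 higher (large 8 and 11, small 11 and 6), with medians of -0.15, -0.025 for the large and -0.40 for the small subunit. MRPL4 (1.66), MRPS18A (0.14), MRPS18C (0.45), MRPL58 (0.68), LRPPRC (0.091) and POLRMT (1.43) turned positive. Lower and higher genes then numbered 3 and 11 of 29 assembly factors and 7 and 3 of 16 translation factors. For tRNA synthetases they numbered 2 and 8 of 20, and for DNA maintenance 5 and 5 of 16. Biogenesis regulators gave 1 and 5 of 9, and 0 of the 4 proteins with other names were lower. Of all 17687 named genes, 1774 were lower and 12281 higher with this centring.

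After centring on antigenomic controls, 62 members were lower and 1 higher (large 1, small 0), with medians of -3.11, -2.99 for the large and -3.36 for the small subunit, and 25 assembly factors were lower. On hybridization controls 58 were lower and 1 higher (large 1, small 0), with medians of -2.81, -2.68 and -3.06. Under both, 0 genes were higher among proteins with other names, tRNA synthetases, DNA maintenance and biogenesis regulators. Of all 17687 named genes only 553 were higher after centring on antigenomic and 934 on hybridization controls, so that 0 is not particular to lists this short. MRPL28 (-1.11 and -0.80), MRPS25 (-0.97 and -0.66), MRPS24 (-0.94 and -0.63) and MRPS12 (-0.65 and -0.34) turned negative. At an adjusted p of 0.05 with no minimum fold 7 members were higher (5 large, 2 small), with 3 assembly factors, 2 translation factors and 3 tRNA synthetases. Of all named genes, 8416 were higher and 5633 lower at that threshold. With a fold of at least 4, 35 members were lower and 1 higher (large 19 and 1, small higher 0), assembly factors 9 lower, tRNA synthetases 4 lower and 0 higher, DNA maintenance 0 higher, biogenesis regulators 1 lower and 0 higher, and 0 higher of the proteins with other names. Over all named genes a fold of at least 4 gave 2978 lower and 1127 higher. The filter on dim probe sets kept 72 members, 50 lower and 3 higher, and 1 protein with another name was lower. Of the named genes left by that filter, 4595 were lower and 3712 higher. A trended prior left the member counts at 51 and 3. Causes were not tested. Signals near the background limit 33 members in CD109-KO arrays, where at most a bound on the fold can be given.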
